A study of Mus musculus with 8 samples.

Results

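The 37 genes described here serve the response to DNA damage and its repair. They were taken by gene symbol, and all 37 were found among the 24059 symbols counted in the 8 samples. Bone marrow–derived mast cells (BMMCs), mast cells grown from mouse bone marrow with the cytokine IL-3 for at least 4 wk, received by electroporation a Cas9-gRNA ribonucleoprotein (RNP). In 4 samples the guide was scrambled and non-targeting (genotype labelled Zc3h12a WT), and in 4 samples the guides targeted *Zc3h12a*, the gene of the RNase Regnase-1 (labelled Zc3h12a KO). All mice were of the C57BL/6 strain; the labels do not give an age, and by the methods the donors were several weeks old. Cells of 4 mice were used, so that samples with the same replicate number were treated as a pair. Resting cells were lysed 1 wk after transfection, and poly(A) RNA was sequenced. The cells of a sample are an edited pool, not a clone. Only the *Zc3h12a* guides have a target in the mouse genome, so that cleavage by Cas9 and loss of Regnase-1 cannot be told apart in this design.

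The authors deposited raw counts, with totals of 19610240 (Scrambled RNP replicate 4) to 33986762 (Scrambled RNP replicate 2) per sample. Levels are given as CPM, the count scaled by the TMM-normalized library size. *Zc3h12a* itself was at 24.9, 38.0, 37.1 and 39.3 CPM in Scrambled RNP replicates 1 to 4 and at 26.8, 41.1, 32.2 and 32.6 CPM in *Zc3h12a* RNP replicates 1 to 4. These groups overlapped (log2 fold change, log2 FC, -0.064, standard error, SE, 0.097, adjusted p = 0.960, edgeR), and since small edits need not alter the mRNA level, this value does not check the labels. Mast cell genes were abundant: 10 markers summed to 51070 to 60920 CPM in Scrambled RNP samples and 49230 to 52180 CPM in *Zc3h12a* RNP samples, with only *Tpsab1* near 0. The 9 markers tested all had a log2 FC below 0 (median -0.13), with 0 of them called by the rule given below, as were 0 of all genes tested. The lowest unadjusted p values were those of *Tpsb2* (log2 FC -0.28, SE 0.077, unadjusted p = 0.00708, adjusted p = 0.554, edgeR) and *Hdc* (log2 FC -0.75, SE 0.22, unadjusted p = 0.0113, adjusted p = 0.645, edgeR). Both were lower in 4 of 4 pairs. Of 17 markers of other blood cells, 14 were listed and 6 of these had enough counts to be tested. The 14 summed to 19.0 to 21.9 CPM in Scrambled RNP samples and 16.6 to 28.9 CPM in *Zc3h12a* RNP samples, with *Ly6g* and *Prg2*, which mark neutrophils and eosinophils, among those at or near 0. Others were detected at a low level. Mean CPM under Scrambled and *Zc3h12a* RNP was 6.39 and 7.32 for *Cd68* and 4.08 and 5.10 for *Mcpt8*. It was 3.09 and 3.06 for *Adgre1* and 2.96 and 3.35 for *Cd3e*. For *Hba-a1* it was 2.23 and 1.28, and for *Prss34* 1.44 and 1.37. In such bulk RNA, fewer cells of a kind and less RNA per cell cannot be told apart.

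Cells mend DNA by several routes. Homologous recombination resects a broken end and copies the sister chromatid, so that it works in S phase and G2, while end joining ligates ends throughout the cell cycle. The Fanconi anemia proteins unhook crosslinks between strands, mismatch repair corrects errors of replication, and base excision repair removes single damaged bases. Kinases and chromatin proteins sense the damage and signal it to the cell cycle. Many recombination and Fanconi genes are known to be transcribed when cells enter S phase, under E2F transcription factors.

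The letters of the E2F site were searched in the promoters of the genes because this site is the textbook link between these routes and the cell cycle. The words TTTCCCGC, TTTGGCGC, TTTCGCGC and TTTGCCGC were searched on both strands of RefSeq promoters (GRCm38.p6), which run from 250 bases before to 50 bases after the start of a gene. A promoter was found for 31 of the 37 genes, and 7 of these (22.6%) held a word, as did 6.1% of 82 promoters of other repair genes and 2.26% of all 32851 promoters. For a repair gene the first promoter of its symbol was used. The share over all promoters counted every promoter and was not limited to genes tested here, so the sets are not fully alike. Promoters of the 31 genes had a median GC content of 59.7%, against 52.7% over all promoters, and the part of base composition in these shares was not tested. The 30 bases around each word follow, each 5′ to 3′ on the strand of its gene with the word in capitals.
Chek2 (chr5:110839820-110839849, plus strand): cgggattagccGCGGGAAAccaagacgtcg
Mdc1 (chr17:35841471-35841500, plus strand): tcttcagcctgTTTCCCGCcggtagccgca
Bard1 (chr1:71103163-71103192, minus strand): ccgccgctcagTTTCCCGCtcaggaagttt
Brca2 (chr5:150522442-150522471, plus strand): tttaggccacaGCGGGAAAcagacacacac
Fancg (chr4:43010335-43010364, minus strand): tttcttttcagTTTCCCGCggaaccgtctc
Xrcc6 (chr15:82016312-82016341, plus strand): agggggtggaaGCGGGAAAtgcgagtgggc
Msh6 (chr17:87975054-87975083, plus strand): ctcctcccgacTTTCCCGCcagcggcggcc
The same word or its reverse complement, GCGGGAAA, stood in each of the 7. Its first base lay 209 bases before the start of *Bard1*, 168 before *Brca2*, 152 before *Chek2*, 52 before *Fancg*, 46 before *Xrcc6* and 16 before *Mdc1*, and 15 bases after the start base of *Msh6*. Of 2 further motifs, TTTGAA (the cell cycle genes homology region) was in 6.45% of the 31 promoters, 9.76% of those of other repair genes and 17.9% of all, and CCAAT was in 51.6%, 50% and 37.4%. Words TTTGGCGC and TTTCGCGC can overlap their own reverse complements, and a promoter was counted once however many words it held. A match is a description of these letters only.

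All 37 genes had enough counts to be tested, with at least 24 counts in every sample, and were compared between the RNPs by a quasi-likelihood fit in edgeR that took the replicate number as block. Among the 14934 genes tested, a gene counted as called with a log2 FC past 0.5 or -0.5 and an adjusted p (Benjamini-Hochberg) of at most 0.05. Of the 37 genes, 0 were called higher and 0 lower, and the background was 0% of all genes tested in each direction. At an unadjusted p at or under 0.05, 13 of 37 were higher after *Zc3h12a* RNP and 0 were lower, where 2.12% of all genes were higher and 4.05% lower by this rule. By sign alone, 35 of 37 had a log2 FC above 0, against 57.8% of all genes. Within pairs, 16 genes were higher in 4 of 4 pairs (4.98% of all genes) and 0 were lower in 4 of 4 (8.54%). The median log2 FC of the 37 genes was 0.28, beside 0.038 over all genes, and their lowest adjusted p was 0.449. The 37 genes and the lists named further on were chosen with earlier results of these data known. These shares and medians therefore describe the genes and do not test them against all genes. DESeq2 and limma-trend, both blocked in the same way, also called 0 of the 37, and they had 6 and 13 genes at an unadjusted p at or under 0.05.

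**Figure D1:**
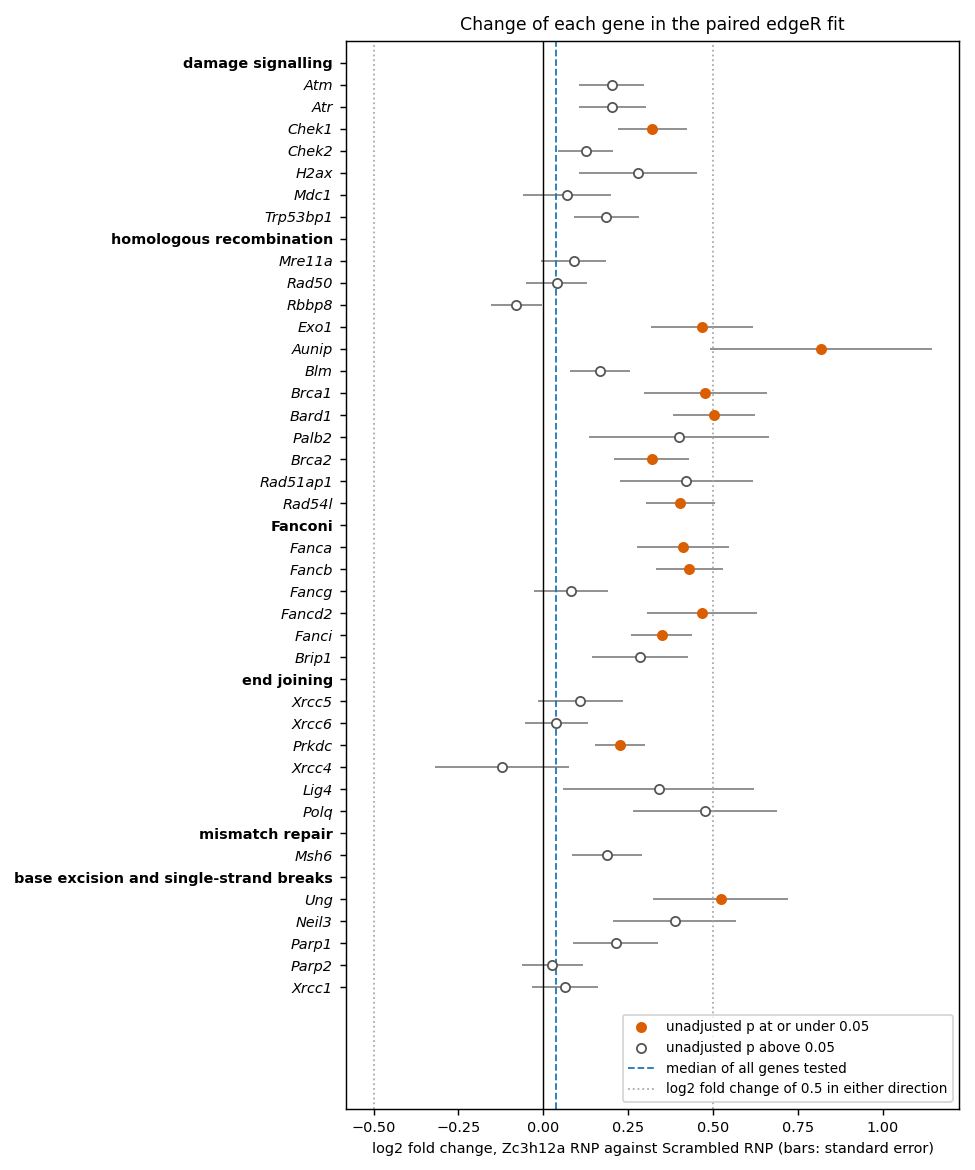
Log2 fold change (x axis) of each of the 37 genes (y axis, by route) between *Zc3h12a* RNP and Scrambled RNP, with the SE as bars, from the paired fit over 4 pairs. Filled points mark the 13 genes with an unadjusted p at or under 0.05, all to the right of 0; 35 of the 37 points lie above 0, and 3 lie beyond 0.5.

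By route, the medians were highest for homologous recombination (0.40 over 12 genes) and the Fanconi genes (0.38 over 6). They were 0.21 for base excision and single-strand break repair (5 genes), 0.20 for damage signalling (7), 0.19 for the only mismatch repair gene and 0.17 for end joining (6). The 13 genes at an unadjusted p at or under 0.05 were 6 of homologous recombination, 4 Fanconi genes and 1 each of damage signalling, end joining and base excision. Without replicate 4 the median of homologous recombination was 0.24, below the 0.32 of the Fanconi genes, and the medians were 0.11 for damage signalling, 0.10 for end joining, 0.083 for mismatch repair and 0.072 for base excision. Homologous recombination also stood just below the Fanconi genes without replicate 3 (0.36 and 0.37), and the median of base excision was 0.35 and that of mismatch repair 0.29 without replicate 2. The order of the routes thus changed with the replicates used, and differences between routes were not tested.

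Homologous recombination begins with resection of the broken end. *Rad50* and *Mre11a* encode the ATPase and the nuclease of the complex that starts it. *Rad50* had the highest level per length of the route, at 12.1 CPM per kilobase of exon. It was at 66.7, 41.2, 106 and 99.7 CPM in Scrambled RNP replicates 1 to 4 and 71.5, 45.1, 91.0 and 110.5 CPM in *Zc3h12a* RNP replicates 1 to 4. Replicate 2 was lowest and the groups overlapped almost fully, with a log2 FC of 0.039 (SE 0.090, adjusted p = 0.962, edgeR). *Mre11a* (log2 FC 0.089) and *Rbbp8* (-0.079), which encodes the resection cofactor CtIP, were close to 0 as well. *Blm*, a helicase that extends resection and dissolves joint molecules, had a log2 FC of 0.17 (SE 0.088).

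*Aunip* encodes a factor that brings CtIP to broken ends. It had the largest fold change of the 37 genes and was at a low level, with 24 to 158 counts per sample. Its level was 3.49, 4.30, 3.19 and 1.14 CPM in Scrambled RNP replicates 1 to 4 and 5.48, 5.72, 4.40 and 4.09 CPM in *Zc3h12a* RNP replicates 1 to 4. It was higher in 4 of 4 pairs, and Scrambled RNP replicate 4 was far below all other samples. The log2 FC was 0.82 (SE 0.33, unadjusted p = 0.0387, adjusted p = 0.772, edgeR), and without replicate 4 it was 0.51. Of the annotated exon bases of *Aunip*, 59.5% are also exon bases of *Mtfr1l* on the opposite strand, which was at a mean of 55.6 CPM. *Mtfr1l* had a log2 FC of 0.080 (SE 0.12), with 2 pairs higher and the other two lower. Since the strand setting of the counting is not stated, how reads of this stretch were assigned is not known here.

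*Exo1*, an exonuclease of long-range resection that also serves mismatch repair, was at 10.3, 14.5, 15.8 and 7.38 CPM in Scrambled RNP replicates 1 to 4. In the *Zc3h12a* RNP samples of these replicates it was at 15.7, 14.7, 19.8 and 14.2 CPM. Pair 2 hardly differed (0.016 on the log2 scale), whereas pairs 1, 3 and 4 differed by 0.61, 0.33 and 0.94. The log2 FC was 0.47 (SE 0.15, adjusted p = 0.680, edgeR).

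*Brca1* and *Bard1* together form a ubiquitin ligase that commits breaks to recombination. *Bard1* shared the lowest adjusted p of the 37 genes. It was at 8.85, 11.2, 15.2 and 8.71 CPM in Scrambled RNP replicates 1 to 4 and 13.5, 12.8, 20.1 and 15.2 CPM in *Zc3h12a* RNP replicates 1 to 4. All 4 pairs were higher, by 0.20 to 0.80 on the log2 scale, although the groups overlapped, since Scrambled RNP replicate 3 was above 3 of the *Zc3h12a* RNP samples. Its log2 FC was 0.50 (SE 0.12, unadjusted p = 0.00357, adjusted p = 0.449, edgeR). *Brca1* was at 21.5, 28.7, 31.8 and 13.4 CPM in the Scrambled RNP samples and 26.3, 35.0, 34.5 and 32.4 CPM in the *Zc3h12a* RNP samples, in the same order. Its log2 FC of 0.48 (SE 0.18, adjusted p = 0.744) was carried mostly by pair 4, with a difference of 1.27 against 0.12 to 0.29 in the other pairs. Without replicate 4 it was 0.23.

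*Palb2* and *Brca2* act next, loading the recombinase on single strands. *Brca2* was at 12.6, 15.6, 25.0 and 14.3 CPM in Scrambled RNP replicates 1 to 4 and at 17.0, 19.5, 24.7 and 21.1 CPM in *Zc3h12a* RNP replicates 1 to 4. Pair 3 differed by -0.019, and the other 3 pairs were higher after *Zc3h12a* RNP (log2 FC 0.32, SE 0.11, adjusted p = 0.686, edgeR). *Palb2*, the gene with the lowest level per length (0.399 CPM per kilobase), was higher in 4 of 4 pairs. Its log2 FC was 0.40 with a SE of 0.26 and an unadjusted p of 0.172.

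*Rad54l* encodes a translocase and *Rad51ap1* an accessory factor of strand exchange. *Rad54l* was at 20.5, 13.2, 25.7 and 20.8 CPM in Scrambled RNP replicates 1 to 4, against 22.9, 16.2, 36.1 and 33.0 CPM in *Zc3h12a* RNP replicates 1 to 4. It was higher in 4 of 4 pairs, with a log2 FC of 0.40 (SE 0.10, unadjusted p = 0.00488, adjusted p = 0.503, edgeR). Of its exon bases, 22.2% are shared with *Lrrc41*, which had a log2 FC of 0.034 (SE 0.10). *Rad51ap1* had a log2 FC of 0.42 (SE 0.19) and was lower in pair 2 (-0.13) and higher by 1.22 in pair 4. Its log2 FC was 0.18 without replicate 4 and 0.66 without replicate 2.

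**Figure D2:**
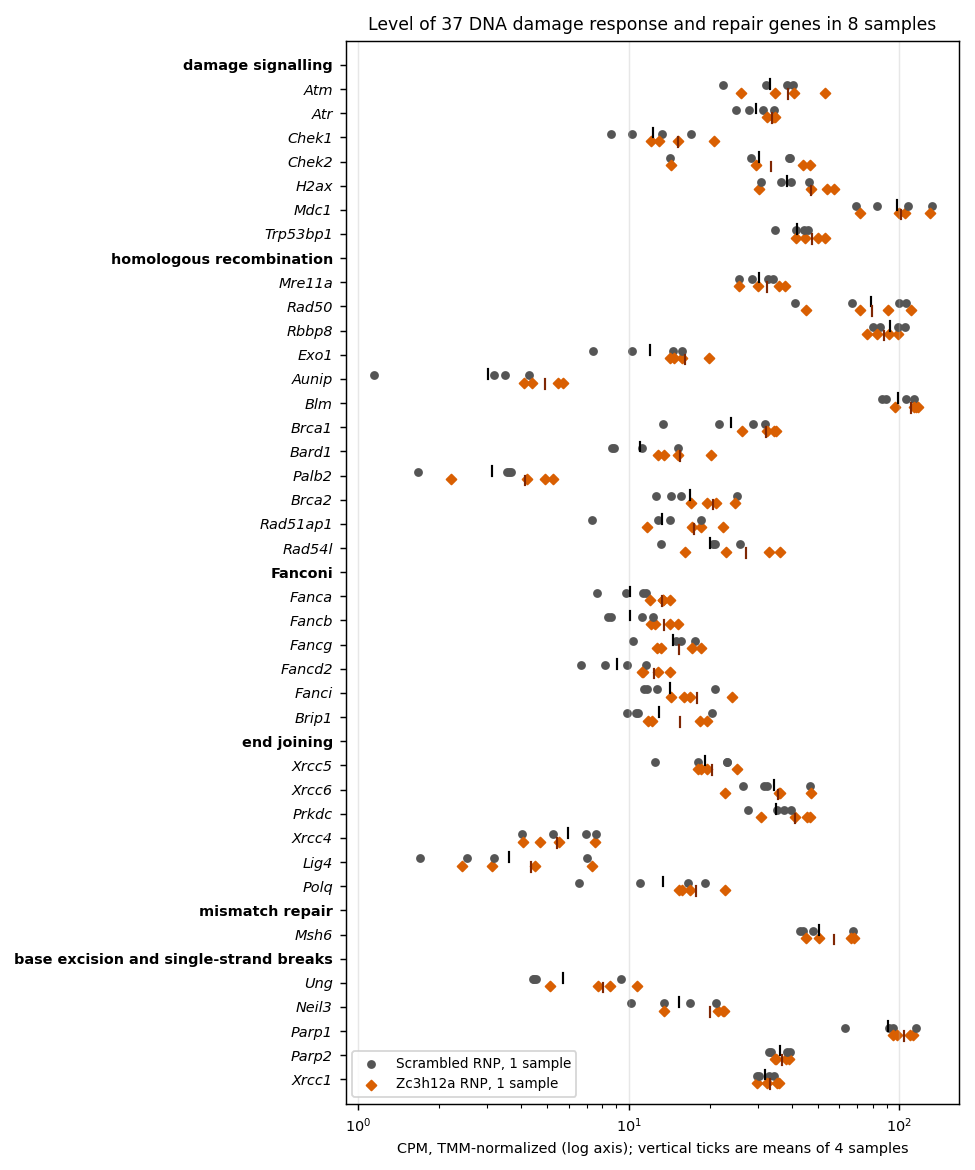
Level of each of the 37 genes (y axis, by route) as TMM-normalized CPM on a log axis, with 1 point per sample (circles, 4 Scrambled RNP samples; diamonds, 4 *Zc3h12a* RNP samples) and vertical ticks at the group means. The groups overlap for every gene but *Fanca*, and *Aunip* has 1 Scrambled RNP sample at 1.14 CPM, apart from the other 7.

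Among the Fanconi genes, *Fanca*, *Fancb* and *Fancg* encode parts of the core complex, a ubiquitin ligase. *Fanca* was at 7.67, 9.76, 11.3 and 11.6 CPM in Scrambled RNP replicates 1 to 4 and 13.3, 13.4, 14.3 and 12.0 CPM in *Zc3h12a* RNP replicates 1 to 4. Its groups did not overlap, the only such case among the 37 genes, where 0.261% of all genes had every *Zc3h12a* RNP sample above every Scrambled RNP sample. The log2 FC was 0.41 (SE 0.13, adjusted p = 0.686, edgeR), from 0.79 in pair 1 down to 0.049 in pair 4. *Fanca* shares 28.5% of its exon bases with *Zfp276*, which had a log2 FC of 0.24 (SE 0.12). *Fancb* was at 8.62, 8.40, 12.3 and 11.2 CPM in the Scrambled RNP samples and 12.6, 12.1, 15.2 and 14.2 CPM in the *Zc3h12a* RNP samples of replicates 1 to 4. Its differences were 0.31 to 0.54 in the 4 pairs, the narrowest range among the 13 genes after *Prkdc*. It had the lowest unadjusted p, with a log2 FC of 0.43 (SE 0.099, unadjusted p = 0.00288, adjusted p = 0.449, edgeR). *Fancg* had the highest level per length of the route (3.80 CPM per kilobase). Its level was 14.9, 10.4, 15.6 and 17.5 CPM and 13.2, 12.8, 18.5 and 17.2 CPM in the same order, higher in 2 pairs and lower in 2 (log2 FC 0.082, SE 0.11).

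*Fancd2* and *Fanci* encode the clamp that the core complex ubiquitylates. *Fanci* was at 11.4, 11.7, 20.8 and 12.8 CPM in Scrambled RNP replicates 1 to 4 and 16.0, 14.3, 24.2 and 16.9 CPM in *Zc3h12a* RNP replicates 1 to 4. Replicate 3 was highest under both RNPs, and 4 of 4 pairs were higher, with a log2 FC of 0.35 (SE 0.089, adjusted p = 0.503, edgeR). *Fancd2* was at 8.15, 11.6, 9.88 and 6.66 CPM and 11.3, 11.2, 14.2 and 12.8 CPM in the same order. Pair 2 differed by -0.047, and the other 3 pairs by 0.47 to 0.93 (log2 FC 0.47, SE 0.16, adjusted p = 0.686). *Brip1*, which encodes the helicase FANCJ, had a log2 FC of 0.29 (SE 0.14) and 0.12 without replicate 4.

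Of the damage signalling genes, *Atm* and *Atr* encode the kinases for double-strand breaks and for single-stranded DNA. Both were higher in 4 of 4 pairs, *Atm* by 0.013 to 0.47 and *Atr* by 0.012 to 0.46. Their log2 FCs were 0.20 and 0.20 (SEs 0.096 and 0.10). *Chek1*, the kinase downstream of ATR, was at 10.3, 13.3, 17.1 and 8.61 CPM in Scrambled RNP replicates 1 to 4 and 12.1, 15.2, 20.7 and 12.9 CPM in *Zc3h12a* RNP replicates 1 to 4. It was higher in 4 of 4 pairs, by 0.19 to 0.58, with a log2 FC of 0.32 (SE 0.10, unadjusted p = 0.0149, adjusted p = 0.662, edgeR). *Chek2*, the kinase downstream of ATM, was higher in 4 of 4 pairs as well, but by only 0.0073 to 0.26. *Chek2* was at 14.2 and 14.3 CPM in the samples of replicate 2 and at 28.3 to 46.9 CPM in all others.

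*H2ax* encodes the histone variant that is phosphorylated around breaks. It had the highest level per length of the 37 genes, 30.9 CPM per kilobase of exon, where the median was 2.74 over the 37 and 2.53 over 14411 genes tested with a known length. Its level was 36.6, 39.8, 46.2 and 30.7 CPM in Scrambled RNP replicates 1 to 4 and 47.3, 30.3, 57.4 and 54.0 CPM in *Zc3h12a* RNP replicates 1 to 4. Pairs 1, 3 and 4 were higher, by 0.37, 0.31 and 0.81, and pair 2 was lower (-0.39). The test gave a log2 FC of 0.28 (SE 0.17, unadjusted p = 0.150, adjusted p = 0.960, edgeR). It was 0.56 without replicate 2 (adjusted p = 0.0822) and 0.10 without replicate 4. *H2ax* is known to make a transcript without a poly(A) tail too, which poly(A) libraries do not sample. *Mdc1*, whose product binds the phosphorylated histone, had a log2 FC of 0.071 (SE 0.13), and *Trp53bp1*, whose product 53BP1 limits resection, had a log2 FC of 0.19 (SE 0.096).

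In end joining, *Xrcc5* and *Xrcc6* encode the Ku subunits that bind ends, *Prkdc* the kinase DNA-PKcs, and *Xrcc4* and *Lig4* the ligase complex. *Xrcc6*, with the highest level per length of the route (7.04 CPM per kilobase), was at 32.5, 26.5, 46.8 and 31.5 CPM in Scrambled RNP replicates 1 to 4 and 36.3, 22.8, 47.2 and 35.9 CPM in *Zc3h12a* RNP replicates 1 to 4. The samples of a replicate number lay close together (log2 FC 0.038, SE 0.093). *Prkdc* was at 27.6, 37.4, 35.2 and 39.6 CPM and 30.7, 45.5, 41.3 and 46.8 CPM in the same order. Each of its 4 pairs was higher, by 0.15 to 0.28 (log2 FC 0.23, SE 0.074, unadjusted p = 0.0167, adjusted p = 0.686, edgeR). *Xrcc5* had a log2 FC of 0.11 (SE 0.13) and *Xrcc4*, one of the 2 genes with a negative value, a log2 FC of -0.12 (SE 0.20). *Lig4* was at a low level in Scrambled RNP replicates 1 to 3 (1.70 to 3.19 CPM) and replicate 4 was highest under both RNPs, at up to 7.30 CPM, with a log2 FC of 0.34 (SE 0.28) that was 0.52 without replicate 1. *Polq* encodes the polymerase of end joining by microhomology. Its difference was 1.35 in pair 4 and -0.12 in pair 3 (log2 FC 0.48, SE 0.21, unadjusted p = 0.0565), and its log2 FC was 0.22 without replicate 4.

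Mismatch repair was represented by *Msh6*, whose product recognizes mispaired bases. *Msh6* was at 43.9, 42.9, 67.1 and 48.0 CPM in Scrambled RNP replicates 1 to 4 and 50.5, 45.1, 66.1 and 68.0 CPM in *Zc3h12a* RNP replicates 1 to 4. It was higher in 3 of 4 pairs, most in pair 4 (0.50), with a log2 FC of 0.19 (SE 0.10, adjusted p = 0.920, edgeR).

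In base excision repair, *Ung* and *Neil3* encode glycosylases that remove uracil and oxidized bases. *Ung* was at 4.57, 4.43, 9.33 and 4.47 CPM in Scrambled RNP replicates 1 to 4, where replicate 3 stood above the other 3 samples. In *Zc3h12a* RNP replicates 1 to 4 it was at 7.70, 5.11, 10.8 and 8.51 CPM. It was higher in 4 of 4 pairs, by 0.20 and 0.21 in pairs 2 and 3 and by 0.74 and 0.92 in pairs 1 and 4. The log2 FC was 0.52 (SE 0.20, unadjusted p = 0.0324, adjusted p = 0.744, edgeR). *Neil3* had a log2 FC of 0.39 (SE 0.18), with a difference of 1.14 in pair 4 and 0.0017 in pair 2, and a log2 FC of 0.15 without replicate 4. *Parp1*, the main sensor of single-strand breaks, had the highest level per length of the route (13.4 CPM per kilobase). It was at 91.7, 95.1, 115 and 62.7 CPM and 112, 94.5, 109.9 and 98.2 CPM in the same order, higher in 2 pairs and lower in 2 (log2 FC 0.21, SE 0.13). *Parp2* (0.027) and the scaffold *Xrcc1* (0.064) had SEs of 0.089 and 0.096.

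The differences were uneven over the pairs. In log2 units, pairs 1 to 4 had a median difference of 0.27, 0.19, 0.12 and 0.47 over the 37 genes, and 32, 28, 26 and 35 genes were higher. Over all 14934 genes tested the medians were 0.027, 0.00885, 0.00761 and -0.059, and 8072, 7651, 7608 and 6615 genes were higher. Pair 4 had the largest difference in size for 23 of the 37 genes and for 10 of the 12 genes of homologous recombination. In that route the medians were 0.25, 0.16, 0.21 and 0.61, whereas the Fanconi genes had 0.48, 0.29, 0.27 and 0.38. Scrambled RNP replicate 4, the sample with the fewest counts, was the lowest of its group for 13 of the 37 genes, and Scrambled RNP replicate 2, the sample with the most counts, for 16. How often a pair was largest or a sample lowest was not counted over all genes tested. Without replicate 4 the median over the 37 genes was 0.18, with 6 genes at an unadjusted p at or under 0.05, and 33 genes were above 0.

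**Figure D3:**
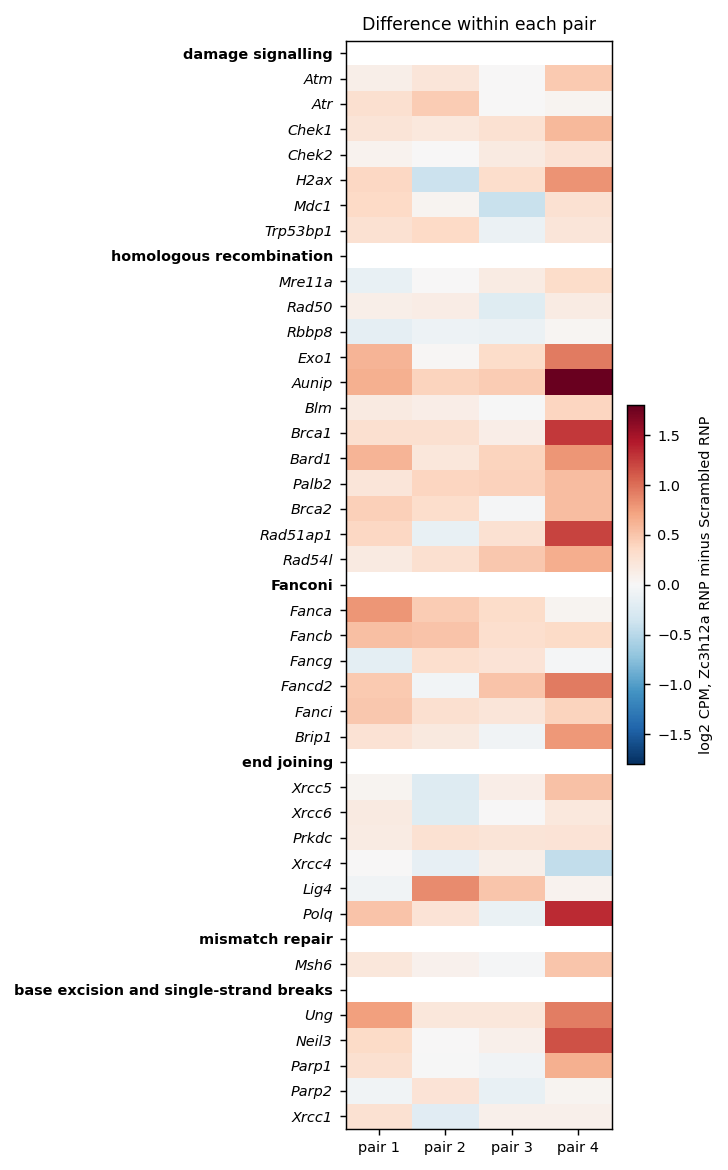
Difference in log2 CPM within each pair (columns), *Zc3h12a* RNP minus Scrambled RNP, for the 37 genes (rows, by route), from blue (lower) to red (higher). Pair 4 has the strongest red, up to 1.77 for *Aunip*, while pair 3 has the lowest median, 0.12.

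Without replicate 2, 5 of the 37 genes were called higher, *Exo1*, *Brca1*, *Bard1*, *Rad51ap1* and *Fancd2*, with log2 FCs of 0.61 to 0.70 and adjusted p of 0.0246 to 0.0476 (edgeR). In that fit 0.53% of all genes were called higher. When the replicate effect was first removed from the log2 CPM and limma-trend was then run without a block, *Bard1* alone was called (adjusted p = 0.0254), where 0.228% of all genes were called higher. That test does not count the removed effect against its degrees of freedom.

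Genes of the cell cycle differed in the same direction as the 37 genes. A list of 27 S phase genes that holds none of them had a median log2 FC of 0.35, with 27 above 0 and 11 at an unadjusted p at or under 0.05. A list of 26 G2/M genes had a median of 0.33, with 26 above 0 and 6 at that p. Neither list had a called gene. In pairs 1 to 4 the S phase median was 0.35, -0.057, 0.21 and 0.90, and the G2/M median 0.37, -0.10, 0.13 and 1.00. The level of the S phase list was lowest in Scrambled RNP replicate 4, with a median log2 CPM of 5.01 against 5.48 to 5.90 in the other 7 samples. These S phase and G2/M medians came to 0.17 and 0.12 without replicate 4, while leaving out replicate 2 gave 0.55 and 0.53. In pairs 1 to 4, 27, 8, 21 and 27 of the 27 S phase genes were higher, and 26, 8, 17 and 26 of the 26 G2/M genes. Of the 37 repair genes, 32, 28, 26 and 35 were higher in these pairs. The part of the cell cycle in the differences of the repair genes was not tested.

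Direct targets of p53, the transcription factor that damage kinases activate, had a median of 0.083 over 16 genes, 10 of them above 0, and of -0.0002 without replicate 3. Of these, 0 were called and 1 had an unadjusted p at or under 0.05.

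Other repair genes, outside the 37, were described from a list of 106, of which 105 were tested. Their median log2 FC was 0.058, beside 0.038 over all genes, with 70 above 0 and 35 below. Of the 105, 0 were called, and at an unadjusted p at or under 0.05, 5 were higher and 4 lower. By route the medians were 0.15 for 18 genes of homologous recombination, 0.16 for 11 Fanconi genes, 0.098 for 17 genes of damage signalling and 0.0027 for 12 of end joining. They were 0.023 for 6 mismatch repair genes, 0.016 for 17 of base excision and 0.043 for 15 of nucleotide excision repair, a route with no gene among the 37. Translesion synthesis and direct reversal had 0.058 over 9 genes.

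The 4 genes of this list with the lowest p included 3 with a negative value. *Cetn2*, which encodes a centrin that also belongs to the damage recognition complex of nucleotide excision repair, was at 50.5, 55.0, 56.9 and 48.1 CPM in Scrambled RNP replicates 1 to 4 and 46.8, 42.9, 47.2 and 38.6 CPM in *Zc3h12a* RNP replicates 1 to 4. It was lower in 4 of 4 pairs (log2 FC -0.26, SE 0.079, unadjusted p = 0.0115, adjusted p = 0.645, edgeR). *Xpa*, a scaffold of the same route, had a log2 FC of -0.35 (SE 0.12), and *Sfr1*, a recombination accessory gene, -0.29 (SE 0.10); both were lower in 4 of 4 pairs. *Hus1*, of the checkpoint clamp, had a log2 FC of 0.31 (SE 0.10) and was higher in 4 of 4.

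The levels differed between replicate numbers. The range of the 4 replicate means, each over both RNPs, was 0.12 to 1.60 on the log2 scale with a median of 0.68, beside a median of 0.76 over all genes tested. Replicate 3 had the highest mean for 24 genes and replicate 2 the lowest for 18, which was not counted over all genes tested. The widest ranges were those of *Lig4* (1.60), *Chek2* (1.58) and *Rad50* (1.28), with replicate 2 lowest and replicate 4 highest in each, and the narrowest that of *Xrcc1* (0.12).

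**Figure D4:**
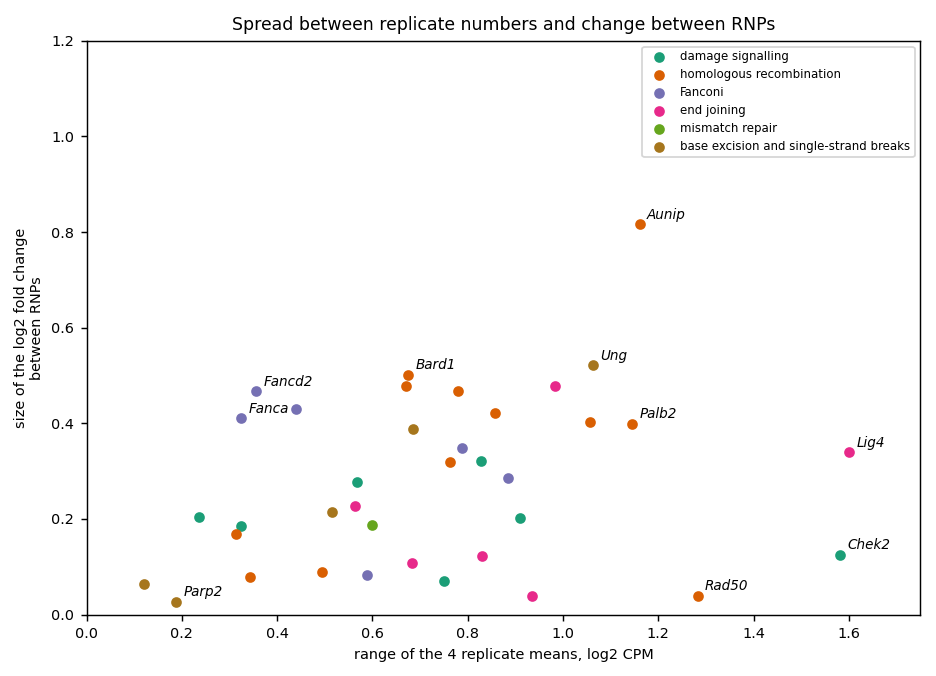
Size of the log2 FC between RNPs (y axis) against the range of the 4 replicate means in log2 CPM (x axis), with 1 point per gene colored by route. *Lig4* (1.60) and *Chek2* (1.58) lie farthest to the right and *Aunip* (0.82) highest; a range of 4 means of 2 samples and a difference of 2 means of 4 samples are not on a like footing.

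The 7 genes whose promoter held an E2F word had a median log2 FC of 0.13, and the 24 with a promoter and no word had 0.33. The genes with the word were *Xrcc6* (0.038), *Mdc1* (0.071), *Fancg* (0.082), *Chek2* (0.13), *Msh6* (0.19), *Brca2* (0.32) and *Bard1* (0.50). The difference between the medians was not tested.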

How the data were processed

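RNA-seq of 8 BMMC samples was analysed, 4 per RNP. The authors deposited raw counts per gene symbol, 1 file per sample; the submitters' processing notes name FastQC (v0.11.9), HISAT2 (v2.2.1), featureCounts (v2.0.1) and the genome GRCm39, and the strand setting of the counting is not given in the sources used here. Counts were normalized by TMM and tested with edgeR (v4.0.16, R v4.3.3) as a quasi-likelihood fit with the replicate number as a block, after its filter on low counts by group (filterByExpr). The standard error was derived from F as the fold change (log2) over its square root. Called genes had an adjusted p (Benjamini-Hochberg over all 14934 genes tested) of at most 0.05 and a log2 fold change beyond 0.5, the fold threshold of the study. Log2 CPM had a prior count of 2. The replicate number was taken as the mouse, from the series design of 4 mice that each gave cells for both RNPs. As a check, deviations from the group means of same-numbered samples correlated at 0.595, 0.0752, 0.624 and 0.0414 over all genes, where different numbers reached 0.398, and at 0.717 to 0.756 over 9668 genes with a mean log2 CPM above 2, where they reached 0.137. The lowest chi-square per degree of freedom between samples of a group was 53.6, so that no library was found to be a copy of another. Levels per kilobase used union exons of GENCODE vM39 for 22640 of 24059 symbols. On data simulated from these libraries, 96.4% of 196 changed genes were recovered at a dispersion of 0.01 and 80.2% of 192 at 0.04. The recovered genes had a median log2 fold change, in size, of 1.02 and 0.997 at these dispersions. The repair genes described here had log2 fold changes of -0.12 to 0.82, with a median of 0.28. These shares therefore do not measure how often changes of that median size would be recovered.

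The 37 genes and all gene lists were chosen with earlier results of these data known. Values in every sample are given for *Aunip*, *Ung* and *H2ax*, for each gene with an unadjusted p at or under 0.05, and per route for the gene of the lowest p and that of the highest level per kilobase. Of the other repair genes, the 4 of lowest p are named. Alternatives were DESeq2 (v1.42.0), limma-trend (v3.58.1) with the block, no block, removal of the replicate effect before limma-trend, RLE size factors, no filter, at least 10 counts in every sample, and leaving out each replicate. Positions of promoter windows follow the RefSeq table on GRCm38.p6, and no coordinate was carried between builds. Figures were drawn with matplotlib (v3.10.9).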

Additional observations from a re-analysis of the deposited data

Results flagged for a closer look

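Of the 74 groups of 4 samples formed by the 37 genes and both RNPs, 5 held a sample whose gap to its nearest neighbor took up more of the range of its group than Dixon's 95% limit allows, where chance alone gives about 3.7 groups. In the Scrambled RNP group, *Ung* had a ratio of gap to range of 0.973, with replicate 3 at 9.33 CPM and the other samples at 4.43 to 4.57. *Brip1* had 0.908, with the same replicate at 20.3 CPM against 9.83 to 10.8, and *Fanci* had 0.857, with it at 20.8 CPM against 11.4 to 12.8. *Palb2* had 0.953, with replicate 2 at 1.67 CPM against 3.57 to 3.66. In the *Zc3h12a* RNP group, *Neil3* had 0.875, with replicate 2 at 13.5 CPM against 21.4 to 22.5. In 4 of these 5 genes, *Ung*, *Brip1*, *Fanci* and *Palb2*, the same replicate was also the highest or lowest of the other RNP group, and *Neil3* was at 13.5 CPM in both samples of replicate 2.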

How the results depend on the processing

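Of the 37 genes, 0 were called higher under DESeq2, limma-trend, RLE size factors, no low-count filter, at least 10 counts in every sample or no replicate block, 1 with the replicate effect removed before limma-trend, and 0 to 5 when a replicate was left out. Called lower were 0 in every fit. The number at an unadjusted p at or under 0.05 was 6 with DESeq2, 0 with no replicate block, where the pairing is ignored, 24 with the replicate effect removed, 10 to 16 in the other fits on all samples and 4 to 18 when a replicate was left out. The median log2 fold change was 0.26 to 0.31 in the fits on all samples (0.26 with no replicate block) and 0.18 to 0.35 when a replicate was left out. The lowest value came without replicate 4 and the highest without replicate 2. Over all genes, DESeq2 called 8 higher and 52 lower, limma-trend 0 and 1, removal of the replicate effect 34 and 79, RLE size factors 0 and 1, no filter 9 and 31, and at least 10 counts in every sample 0 and 3. Leaving out a replicate gave 0 to 80 higher and 0 to 57 lower, the highest counts without replicate 2. The median of the other repair genes was 0.018 to 0.14 when a replicate was left out. Direction turned in a leave-one-out fit for *Fancg* (-0.024 to 0.22) and *Xrcc1* (-0.00026 to 0.22) without replicate 3. It also turned for *Xrcc5* (-0.023 to 0.29) without replicate 4 and for *Xrcc6* (-0.012 to 0.18) without replicate 3 or 4. Parentheses give the range over the 4 such fits. *Xrcc6* was at -0.0057 without replicate 3 and at -0.012 without replicate 4. Over the single genes, here the 37 and the 4 other repair genes of lowest p, 440 values kept direction and call, 6 became called and 5 turned. The cause was not tested.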
